A study of Mus musculus with 18 samples.

Results

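The imprinted genes described here are Peg3, Plagl1, Mest, Ndn, Nnat, Igf2, Grb10, Dlk1, Meg3 and Magel2, 10 of the 19938 genes measured. A member was any probe set whose platform annotation gave exactly 1 of these symbols, and each member had a single probe set. The group was put together around Peg3 because Peg3 was high in 1 of the sorted cell gates, so the values that chose it are given as a description and without a test. The cells came from small intestinal crypts of mice aged 4 months, of strain C57Bl6/J and genotype FltpZV/+, that is, with 1 copy of a Venus reporter allele of Flattop (Fltp). All 3 groups carried that allele: dissociated crypt cells were sorted by reporter fluorescence into a negative, a low and a high gate, with 2 arrays per gate, each from a pool of 2 animals. A gate is therefore defined by the activity of 1 promoter and may hold several cell types. The labels describe 12 further samples from Flattop lineage tracing, which were not analysed here.

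Imprinted genes are transcribed mainly from the allele inherited from 1 parent, because a differentially methylated control region silences the other. They lie in clusters, and many act in growth, placental function, the nervous system and endocrine tissues. Peg3, Plagl1, Mest, Ndn, Nnat, Igf2, Dlk1 and Magel2 are usually expressed from the paternal allele and Meg3 from the maternal allele, while Grb10 is maternal in most tissues and paternal in neurons. Array values do not separate the alleles, so nothing below bears on imprinting itself. The crypt holds stem cells, Paneth cells that secrete antimicrobial proteins, and enteroendocrine cells that secrete hormones.

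Peg3 is read from a promoter that it shares, head to head, with Usp29, and this sequence is shown because the arrays measured both genes. All 10 members matched the RefSeq promoter windows of assembly GRCm38.p6, which run from 250 bases before to 50 bases after each annotated start. The 300-base windows of Peg3 and Usp29 overlap by 263 bases. The first stretch is the part of these windows that lies outside the RefSeq gene records of both Peg3 and Usp29, at chr7:6730463-6730558, printed on the minus strand, the strand of Peg3. It lies within the longer interval between the starts on which the windows are set. Capitals mark CpG dinucleotides, the sites of DNA methylation. A second, 24-base stretch at chr7:6730605-6730628, also on the minus strand, has the palindrome GGGGCCCC in capitals, letters that the zinc finger protein encoded by Plagl1 is known to bind. The third stretch lies directly before the Meg3 start, on the plus strand at chr12:109540796-109540995, and has its CpG dinucleotides in capitals. It is shown because Meg3 had the second largest low-gate difference among the members.
Between the Peg3 and Usp29 gene records: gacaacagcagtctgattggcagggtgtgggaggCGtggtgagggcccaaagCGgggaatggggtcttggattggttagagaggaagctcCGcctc
Peg3 window, GGGGCCCC: tctgcttgGGGGCCCCtaacactg
Meg3 upstream: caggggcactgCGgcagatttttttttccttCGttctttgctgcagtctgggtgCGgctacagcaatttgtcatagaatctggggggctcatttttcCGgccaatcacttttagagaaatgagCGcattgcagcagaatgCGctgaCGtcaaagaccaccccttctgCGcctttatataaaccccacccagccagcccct

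The stretch outside both gene records has 3 CpG dinucleotides in 96 bases, and the one before Meg3 has 8 in 200 bases. GGGGCCCC reads the same on both strands, was the only motif searched, and was present in 1 of the 17 promoter windows of the members. It was present in 354, or 1.08%, of all 32851 windows. Over whole windows, the members held 1 to 45 CpG dinucleotides, against a median of 7 over all windows. These are descriptions of the letters, and binding and methylation were not measured.

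Expression values were log2 RMA values, and a gene was taken as above background when its value passed 4.23, the 95th percentile of the mean level of 1203 smell, vomeronasal and trace-amine receptor genes. Between 61.3% and 69.4% of genes passed that level on an array. The arrays of a gate correlated over all genes at r = 0.981 (negative), 0.975 (low) and 0.946 (high), so the high gate was the most variable. All 9 crypt epithelium markers were above background on every array, as the tissue label requires. Differences were fitted with limma across all 19938 genes, and a gene was called at a Benjamini-Hochberg adjusted p below 0.05. Counts of genes at an unadjusted limma p below 0.05 are also given below. The share of all genes at that level was not tallied, so nothing is read from those counts. With 2 arrays a gate, precision was limited by their number, and no single-gene permutation test could pass that level.

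Peg3, which encodes a large zinc finger protein, was below background in the negative gate, far above it in the low gate and slightly above it in the high gate. Its log2 values were 4.01 and 3.87 on the negative arrays, 9.49 and 9.33 on the low arrays, and 4.92 and 4.72 on the high arrays. The 3 gates did not overlap, and the high arrays lay nearer to the negative than to the low arrays. The gate means were 3.94 ± 0.10, 9.41 ± 0.12 and 4.82 ± 0.14 (SD, n = 2 each). The low gate exceeded the negative gate by 5.47 ± 0.19 (log2, SE, n = 2 arrays each), the 20th largest increase of 19938 genes. Since no negative array was above background, the difference is bounded as at least 5.18 on the log2 scale, or at least 36.2-fold higher. High minus low was -4.59 ± 0.19. In RNA from sorted pools, fewer cells of a type and less RNA per cell cannot be told apart.

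**Figure D1:**
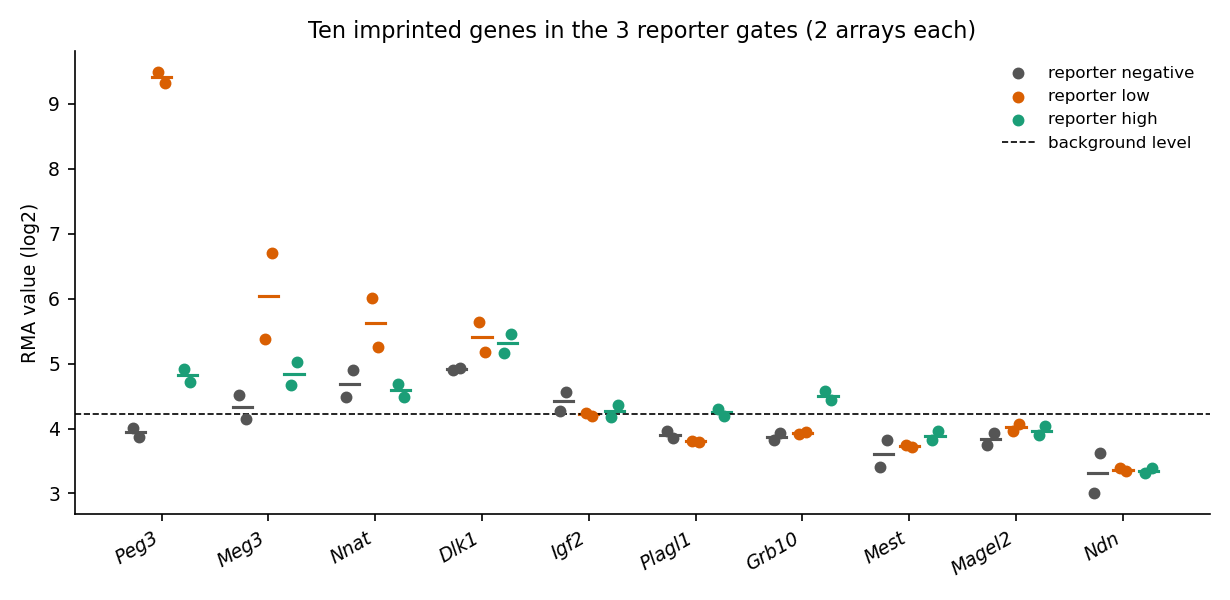
Log2 RMA value (vertical axis) of each of the 10 members on each array, as points coloured by reporter gate; bars are gate means and the dashed line is the background level of 4.23. Peg3 is at 9.49 and 9.33 on the low arrays and between 3.87 and 4.92 on the other 4, while Mest, Ndn and Magel2 stay below the line on all 6.

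The comparison of the high with the negative gate was not itself used to choose Peg3. It shares its negative arrays with the low against negative comparison that was, so the p for Peg3 below is not independent of that choice. Peg3 was higher in the high gate by 0.88 ± 0.19 (log2; 95% interval 0.43 to 1.33), at least 0.59 against background. In limma its adjusted p was 0.0506 (unadjusted 0.00243), just past the threshold, so the difference was not called. Over the alternative settings the adjusted p lay between 0.0487 and 0.268. The lower of those came with the mean over probe sets, under which Peg3, with its single probe set, kept its value of 0.88 and was called; it was also called at a threshold of 0.1. For scale, the summed level of 12 enteroendocrine markers was 379 and 425 on the negative arrays, 19052 and 21261 on the low arrays, and 750 and 1578 on the high arrays.

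Both measured neighbours of Peg3 in its imprinted domain stayed below background. Usp29, a ubiquitin protease gene whose start faces that of Peg3 in the sequence shown above, read 2.95 and 3.09 on the negative arrays, 2.84 and 3.00 on the low arrays, and 3.36 and 3.06 on the high arrays. Zim1, a zinc finger gene of the same domain, read 3.53 and 3.24, then 3.82 and 3.52, then 3.46 and 3.48. Neither passed background on any array, so no fold is given for them, and differences below that level could not be seen.

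The genes most like Peg3 were found by Pearson correlation over the 6 arrays among 1478 genes with a range of at least 2 log2 units. They were Scgn (r = 0.999), Disp2 (0.998), Ncam2, Rev3l, Rimbp2 and Scg2 (0.997 each). The 6 points form 1 high pair and 2 low pairs, so these coefficients describe the gate pattern and carry no p. Scgn, which encodes the calcium-binding protein secretagogin, read 3.79 and 3.52 on the negative arrays, 9.34 and 9.0 on the low arrays, and 4.80 and 4.26 on the high arrays. Scg2, a secretory granule gene that is also 1 of the 12 enteroendocrine markers, read 3.67 and 4.11, then 9.78 and 9.35, then 5.02 and 4.97. Ncam2 encodes a cell adhesion protein, Rimbp2 a presynaptic scaffold and Rev3l a DNA polymerase subunit. Rev3l was above background on every array, at 5.96 and 5.80 in the negative gate and 7.77 and 7.81 in the low gate.

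**Figure D2:**
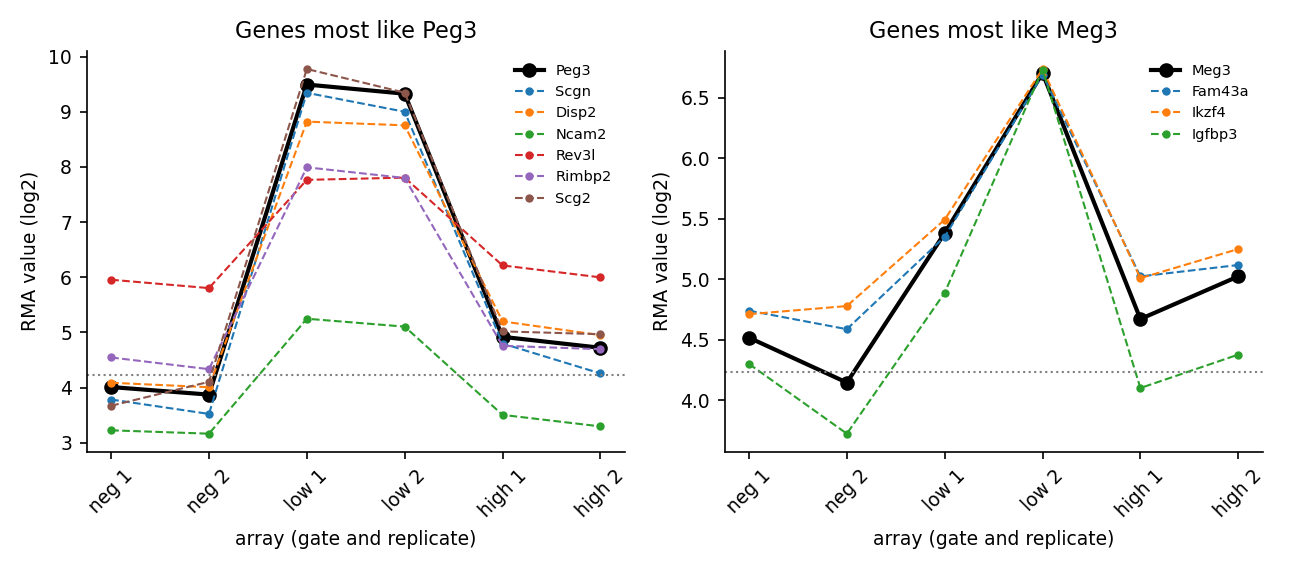
Log2 RMA values of Peg3 and the 6 genes most like it, and of Meg3 and the 3 genes most like it, on the 6 arrays; lines only join the arrays, and the dashed line is the background level. Peg3 and its like genes are high on both low arrays, while Meg3 and its like genes peak on low replicate 2.

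Plagl1, another zinc finger gene and a known regulator within a network of imprinted genes, was barely detected. It read 3.96 and 3.85 on the negative arrays, 3.81 and 3.79 on the low arrays, and 4.30 and 4.20 on the high arrays. A single high array was above background, and high minus negative was 0.35 ± 0.18, at least 0.02 against background (limma adjusted p = 0.299). High minus low was 0.45 ± 0.18, also at least 0.02 against background (limma adjusted p = 0.199). With quantile normalization these differences of Plagl1 were 0.12 and 0.24.

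Meg3, a noncoding RNA, and Dlk1, a transmembrane protein of the Notch ligand type, belong to 1 imprinted domain. Meg3 read 4.52 and 4.15 on the negative arrays, 5.38 and 6.70 on the low arrays, and 4.67 and 5.02 on the high arrays. Both low arrays were above all other arrays, but they differed from each other by more than the negative and high gates did. Low minus negative was 1.71 ± 0.42, the 351st largest increase; it was 1.05 without low replicate 2 and 2.37 without low replicate 1. High minus low was -1.19 ± 0.42 (limma adjusted p = 0.165), and it was -1.85 without low replicate 1 (0.0471) but -0.53 without low replicate 2 (0.441). High minus negative was 0.52 ± 0.42 (limma adjusted p = 0.493), and 0.33 to 0.70 over the alternatives.

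The genes most like Meg3 were Fam43a (r = 0.989), Ikzf4 (0.985) and Igfbp3 (0.982), all highest on low replicate 2. Igfbp3, which encodes an IGF-binding protein, read 4.30 and 3.72 on the negative arrays, 4.89 and 6.73 on the low arrays, and 4.10 and 4.38 on the high arrays. The endothelial marker Pecam1 was also highest on that array, at 5.44, against 4.28 on low replicate 1 and 3.36 to 4.06 elsewhere. Summed over 7 endothelial markers, the level was 95 to 103 on the negative arrays, 102 and 127 on the low arrays, and 103 and 119 on the high arrays. The defining markers Cdh5, Kdr, Emcn and Tek were not above background on any array. Lyve1 read 4.64 and 4.69 on the low arrays, and Tie1 passed background on the high arrays only. Pecam1 alone of the 7 was highest on low replicate 2, and each of the others was highest on a high array. Of the 7, limma called 0 in a comparison, with 1, 1 and 2 at an unadjusted p below 0.05 in the low against negative, high against negative and high against low comparisons. Whether endothelial cells had a part in the Meg3 difference was not tested.

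Dlk1 was above background on all 6 arrays but varied little. It read 4.90 and 4.94 in the negative gate, 5.65 and 5.18 in the low gate, and 5.17 and 5.46 in the high gate. The low and high arrays were all above the negative arrays and overlapped each other. High minus negative was 0.39 ± 0.23 (limma adjusted p = 0.349) and low minus negative 0.49 ± 0.23. With 1 array left out, the first ran from 0.25 to 0.54 and the second from 0.26 to 0.73. Of 4 measured neighbours in the Dlk1 and Meg3 domain, Begain, Rtl1, Rian and Dio3, none was called by limma in a comparison. At an unadjusted p below 0.05, 1 of the 4 differed between the high and negative gates and 1 between the high and low gates. Rtl1, a retrotransposon-derived gene, read 4.20 and 3.90 in the negative gate, 4.14 and 4.11 in the low gate, and 4.68 and 4.67 in the high gate.

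Nnat encodes neuronatin, a small membrane protein of brain and endocrine cells. Its values were 4.48 and 4.89 on the negative arrays, 6.01 and 5.25 on the low arrays, and 4.69 and 4.48 on the high arrays. Both low arrays exceeded the other 4, which overlapped. Low minus negative was 0.95 ± 0.29, the 1037th largest increase, and 0.57 without low replicate 1. High minus low was -1.04 ± 0.29 (limma adjusted p = 0.105) and -0.67 without low replicate 1 (0.382), and high minus negative was -0.10 ± 0.29 (95% interval -0.80 to 0.60; limma adjusted p = 0.859). Blcap, in whose intron Nnat lies, read 6.80 and 6.63, then 6.95 and 7.07, then 6.29 and 6.85, and was not called in a comparison.

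Among genes of insulin-like growth factor signalling, Igf2 encodes a fetal growth factor and Grb10 an adaptor that restrains insulin and IGF receptors. Igf2 stayed near background, at 4.28 and 4.56 in the negative gate, 4.24 and 4.20 in the low gate, and 4.18 and 4.36 in the high gate. High minus negative was -0.15 ± 0.19 for Igf2 (limma adjusted p = 0.663). Grb10 read 3.82 and 3.93 in the negative gate, 3.92 and 3.94 in the low gate, and 4.57 and 4.43 in the high gate. It was thus above background on both high arrays and on no other, and the high gate did not overlap either of the others. High minus negative was 0.62 ± 0.18 for Grb10, at least 0.27 against background, with a limma adjusted p of 0.106. High minus low was 0.57 ± 0.18 (limma adjusted p = 0.132). Over the alternatives these differences of Grb10 ran from 0.43 to 0.69 and from 0.40 to 0.64. More genes of all kinds passed background on the high arrays (65.4% and 69.4%) than on the other arrays (61.3% to 63.0%).

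In a list of 16 insulin and IGF pathway genes, 15 were measured, and Irs1, the insulin receptor substrate, was the single gene called. That is 6.7% of the list in low against negative and in high against low, near the 5.96% and 4.91% of all genes called. Irs1 read 3.83 and 4.22 in the negative gate, 5.95 and 6.51 in the low gate, and 4.31 and 4.19 in the high gate. It rose in the low gate by 2.21 ± 0.25, at least 2.00 against background (limma adjusted p = 0.00572; 0.0668 without negative replicate 1). High minus low was -1.99 ± 0.25 (limma adjusted p = 0.00854), but -1.24 with the mean over probe sets (0.0602). At an unadjusted p below 0.05, 6 of the 15 differed in low against negative and 5 in high against low; in high against negative 0 did, and 0 were called by limma. Igf2r, the receptor that clears IGF2, was 0.75 ± 0.24 for low minus negative (limma adjusted p = 0.145; called in 4 of 14 settings), -0.12 for high minus negative (0.789) and -0.87 for high minus low (0.101; called in 1 of 14). Igf1r, the signalling receptor, was -0.40, -0.26 and 0.14 in the same comparisons (limma adjusted p = 0.492, 0.546 and 0.732). Igfbp4, for another IGF-binding protein, was 1.52 ± 0.36 for low minus negative (limma adjusted p = 0.061; called in 4 of 14 settings). Without low replicate 1 it was 2.08 (0.0242), and without low replicate 2 it was 0.97.

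Mest, which encodes a hydrolase-like protein, and Ndn and Magel2, neighbouring genes of the MAGE family, were not above background on any array. Mest read 3.40 to 3.96 over the 6 arrays, Ndn 3.01 to 3.63 and Magel2 3.74 to 4.07. No fold is given for these 3 genes. A value below background limits what could be seen and does not show that the genes are silent.

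Taking the members as a group, 5 of 10 had a mean above background, and Nnat and Dlk1 were above it on all 6 arrays. In the high against negative comparison, limma called 0 of 10 members, where 4.71% of all genes were called; 2 of the 10, Peg3 and Grb10, had an unadjusted p below 0.05. The high arrays lay entirely above the negative arrays for 5 members and below for 0, while 32.9% of all genes lay above and 22.4% below, 55.2% in all. The median high minus negative difference was 0.31 over the members, with 8 of 10 above 0, and 0.10 over all genes. With quantile normalization the members' median was 0.093, with 6 of 10 above 0, and that of all genes 0.017. In the high against low comparison, tested for the 9 members other than Peg3, limma called 0 where 4.91% of all genes were called, and 4 had an unadjusted p below 0.05. The 4.71% and 4.91% are shares at the adjusted threshold. No such share was tallied at the unadjusted level, so nothing is read from the unadjusted counts. The high arrays lay above the low arrays for 3 of those 9 and below for 2, beside 35.3% and 20.4% of all genes. Those 9 had adjusted p values from 0.105 to 0.972 and a median of -0.02, against 0.13 over all genes; with quantile normalization these medians were -0.13 and 0.057. The low arrays lay above the negative arrays for 5 of 10 members and below for 2, beside 23% and 28.5% of all genes (51.5% in all); nothing is read from that count because the comparison chose Peg3. Low minus negative over the 9 other members ran from -0.20 to 1.71, with a median of 0.11.

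**Figure D3:**
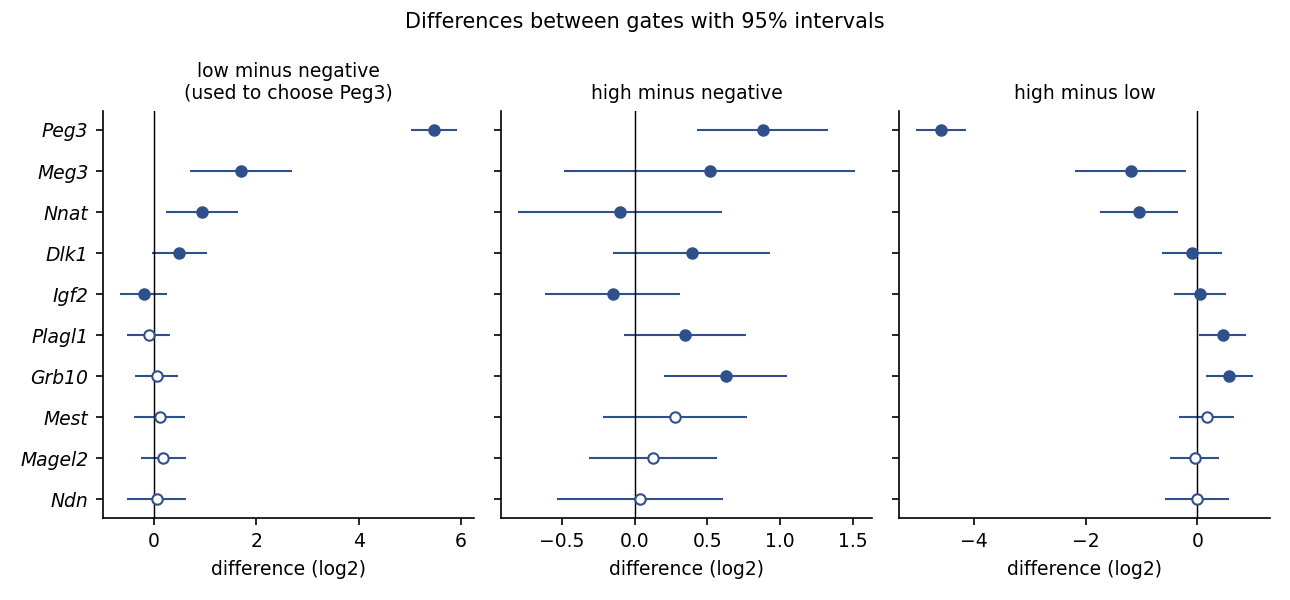
Difference between gates in log2 units (horizontal axis, a different scale in each panel) for the 10 members, with points as fitted differences and lines as 95% intervals per gene, unadjusted. Open points mark genes above background in neither gate; Peg3 is at 5.47 for low minus negative, 0.88 for high minus negative and -4.59 for high minus low.

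A further 56 imprinted genes were listed, of which 45 were measured and 29 had a mean above background. Against the negative gate, the low gate was higher for 5 of them (Gatm, Cdkn1c, Rasgrf1, Impact and Airn) and lower for 1 (Slc22a18) in limma. These 6 are 13.3% of the 45, beside 5.96% of all genes called, of which 3.42% were higher and 2.54% lower. The median low minus negative difference of the 45 was 0.0009, against -0.03 over all genes. By parental origin, 3 of 16 measured paternally expressed genes rose, and 2 rose and 1 fell among 29 maternally expressed genes. In the high gate 0 of 45 were called against the negative gate by limma, with 9 at an unadjusted p below 0.05 and a median of 0.14. Between the high and low gates, H13 was higher in the high gate and Gatm, Cdkn1c, Rasgrf1 and Cd81 were lower, where 1.01% of all genes were higher and 3.89% lower.

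Gatm, the first enzyme of creatine synthesis, showed the largest difference among these 45. It read 3.54 and 3.73 in the negative gate, 7.92 and 7.09 in the low gate, and 3.60 and 3.88 in the high gate, with only the low arrays above background. Low minus negative was 3.87 ± 0.30, at least 3.27 or 9.66-fold against background (limma adjusted p = 0.00146), and high minus low was -3.76 ± 0.30 (limma adjusted p = 0.00144). Both calls held in all 14 alternative settings.

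Cdkn1c, an inhibitor of cyclin-dependent kinases, read 4.94 and 5.25 in the negative gate, 6.35 and 6.62 in the low gate, and 5.37 and 5.44 in the high gate. It rose in the low gate by 1.39 ± 0.21 (limma adjusted p = 0.0134), and high minus low was -1.08 ± 0.21 (0.0356), a call lost in 10 of 14 settings and without each array in turn (0.0566 to 0.188). Rasgrf1, an exchange factor for Ras, read 4.52 on both negative arrays, 5.87 and 5.77 in the low gate, and 4.23 and 4.66 in the high gate. Its differences were 1.3 ± 0.21 for low minus negative (limma adjusted p = 0.0170) and -1.38 ± 0.21 for high minus low (0.0153), the second of which was lost without any 1 negative or low array (0.0514 to 0.1). Impact, a regulator of translational stress signalling, rose by 1.93 ± 0.34 in the low gate (limma adjusted p = 0.0242). Airn, the noncoding RNA that runs antisense through the start of Igf2r, rose by 1.36 ± 0.28 (0.0390); how the array handles strand was not given in the sources used here. Slc22a18, an organic cation transporter gene, fell by 1.11 on the log2 scale (SE 0.22, limma adjusted p = 0.0366).

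Apart from Gatm, these low-gate calls were sensitive to single arrays. Cdkn1c, Rasgrf1, Impact, Airn and Slc22a18 were all lost without negative replicate 1 (limma adjusted p from 0.116 to 0.24), without negative replicate 2 (0.0719 to 0.164) or without low replicate 2 (0.0891 to 0.197). Rasgrf1, Impact, Airn and Slc22a18 were also lost without low replicate 1 (0.0835 to 0.176).

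Cd81, a tetraspanin of many cell types, was above background on every array, at 10.38 and 10.23 in the negative gate, 11.40 and 11.52 in the low gate, and 8.68 and 9.79 in the high gate. High minus low was -2.22 ± 0.35 (limma adjusted p = 0.0181; 0.0532 without either negative array, 0.0879 and 0.0986 without low replicate 1 or 2). H13, an intramembrane protease gene, was higher in the high than the low gate by 1.0 ± 0.21 (limma adjusted p = 0.0474), a call lost in 11 of 14 settings and without each array in turn (0.0555 to 0.214).

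Of 15 genes that lie next to the members and are not on the imprinted lists, 14 were measured. Th, beside Igf2, encodes tyrosine hydroxylase, and Ddc, beside Grb10, encodes the decarboxylase that makes serotonin and dopamine. Ddc read 7.11 and 7.34 in the negative gate, 9.34 and 9.62 in the low gate, and 5.37 and 5.91 in the high gate, so the 3 gates did not overlap. Its differences were 2.26 ± 0.25 for low minus negative (limma adjusted p = 0.00469; 0.0613 without negative replicate 1), -1.58 ± 0.25 for high minus negative (0.0223) and -3.84 ± 0.25 for high minus low (0.000711). The high minus negative call of Ddc was lost without negative replicate 1 or 2 (0.136 and 0.163). Th rose in the low gate by 1.98 ± 0.24 (limma adjusted p = 0.00687; 0.0679 without negative replicate 2), and high minus low was -1.45 (0.0228; 0.131 and 0.0637 without low replicate 1 or 2).

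Further from Grb10 on the Ddc side lie Fignl1 and Ikzf1. Ikzf1, a lymphoid transcription factor gene, was lower in the high than the low gate, with high minus low at -1.87 ± 0.24 (limma adjusted p = 0.00824; 0.0552 without low replicate 2). Fignl1, a DNA repair ATPase gene, was lower in the high than the negative gate, at -1.39 ± 0.24 and by at least 1.03 against background (limma adjusted p = 0.0274). That call was lost without negative replicate 1 or 2 (0.134 and 0.183) and without either low array (0.0569). Ddc, Ikzf1 and Fignl1 all had their lowest mean in the high gate, where Grb10, itself not called, had its highest. The share of all genes with their lowest mean in that gate was not tallied, so nothing is read from this. Cobl, another listed neighbour of Grb10, went the other way. Its means were 6.55 (negative), 6.47 (low) and 7.21 (high), and it was not called in a comparison. Of the 14 neighbours, 2 were higher in the low than the negative gate, where 3.42% of all genes were higher and 2.54% lower. Another 2 calls were lower in the high than the negative gate, where 1.36% of all genes were higher and 3.35% lower. Each pair is 14.3% of the 14. Between the high and low gates 3 were lower in the high gate, or 21.4%, where 1.01% of all genes were higher and 3.89% lower.

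**Figure D4:**
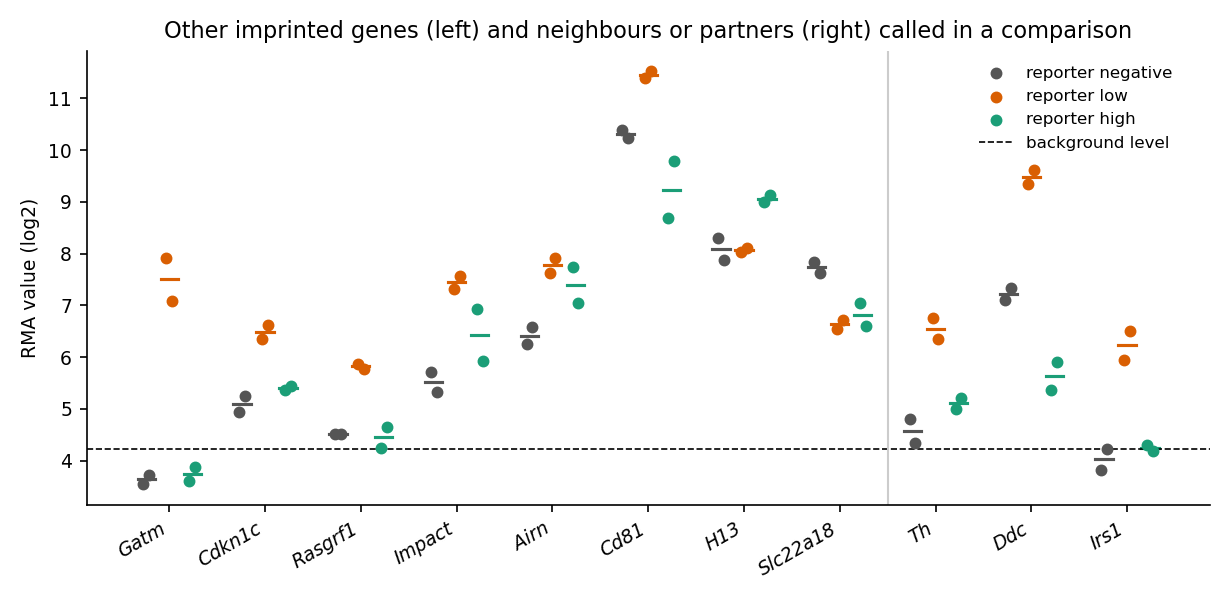
Log2 RMA value on each array for the 8 other imprinted genes called in a comparison (left of the grey line) and for Th, Ddc and Irs1 (right), coloured by gate, with bars as gate means and the dashed line as the background level. Gatm passes background in the low gate only, at 7.92 and 7.09, and H13 is highest in the high gate.

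Markers of several cell types moved with the gates beside these genes. All 12 enteroendocrine markers rose in the low gate and all 12 were lower in the high than the low gate in limma, with median differences of 5.17 and -4.16; between the high and negative gates 0 were called and 9 had an unadjusted p below 0.05. Peg3, Scgn and Gatm were high in the same gate. All 8 Paneth cell markers rose in the low and in the high gate, with summed levels of 4419 to 5669 (negative), 31680 to 37119 (low) and 46295 to 53686 (high). Of 9 measured leukocyte markers, 6 rose and 1 fell in the low gate, and 6 fell in the high gate, both against the negative gate; the sums were 2323 to 2590, 8311 to 8508 and 686 to 834. Cd81, Ddc and Ikzf1 had the same order of gates as the leukocyte sum, but that order was not particular to them. The gate means of Nnat, Rasgrf1, Igf2r, Igfbp4 and Blcap followed it too, with negative and high arrays that overlapped. The part of these cell types in the differences of the imprinted genes was not tested.

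Markers of nerve plexus and stroma were also examined. Of 9 measured enteric neuron markers, Ret alone was called: it rose by 2.56 ± 0.19 in the low gate (limma adjusted p = 0.00128) and by 0.93 ± 0.19 in the high gate (0.0462), and was lower in the high than the low gate. The high minus negative call of Ret was lost in 10 of 14 settings, among them without negative replicate 1 (0.259) or 2 (0.208). The neuronal markers Elavl4, Stmn2 and Chat were not above background on any array, and the neuron sum was 142 to 145, 233 to 240 and 188 to 198. That sum includes Ret, while 7 of the 9 markers had a low minus negative difference below 0. Of 8 fibroblast markers limma called 0, with 0, 4 and 4 at an unadjusted p below 0.05 in the low against negative, high against negative and high against low comparisons. The fibroblast sum was 156 to 158 (negative), 151 to 160 (low) and 194 to 215 (high), and Lum and Dpt were not above background on any array. Of 6 measured glial markers limma also called 0, with 0, 0 and 2 at an unadjusted p below 0.05, and Gfap and Fabp7 were not above background on any array. Of 6 smooth muscle markers limma called 0, with 0, 1 and 2 at an unadjusted p below 0.05, and Actg2 was not above background on any array.

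**Figure D5:**
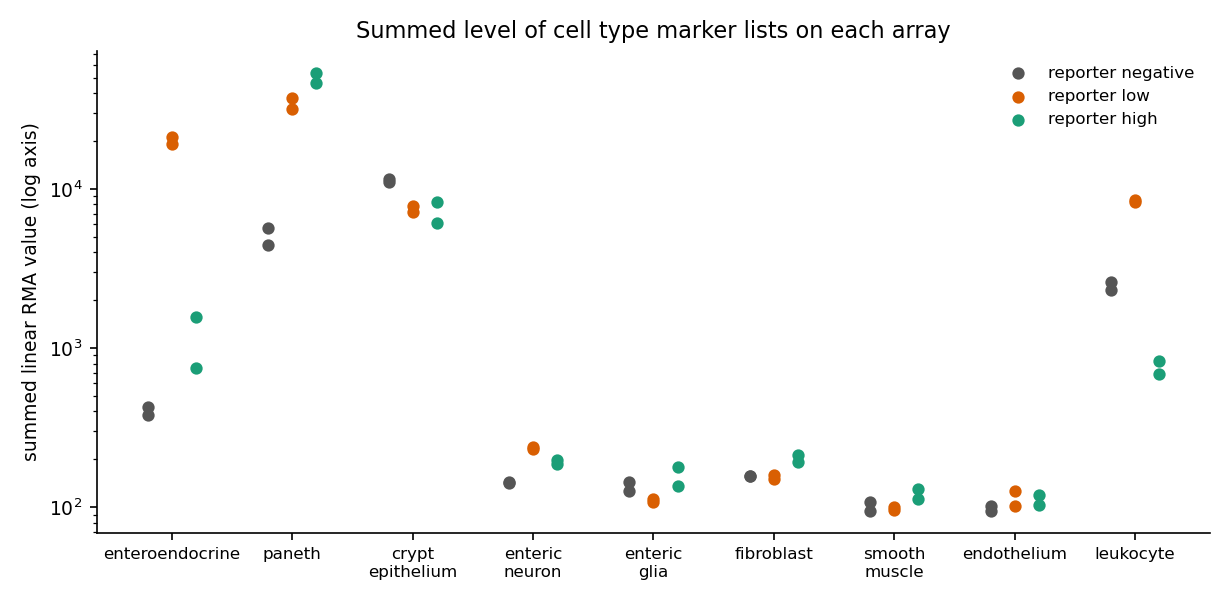
Summed linear RMA level (vertical axis, log scale) of each cell type marker list on each of the 6 arrays, coloured by gate. The enteroendocrine sum is 379 to 425 in the negative gate and 19052 to 21261 in the low gate, while the neuronal, glial, fibroblast, smooth muscle and endothelial sums stay between 95 and 240 on all arrays.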

How the data were processed

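Sorted crypt cells were profiled on Affymetrix arrays: RNA was prepared with a column kit including DNase and amplified by a whole-transcriptome method, per the labels' protocols. The deposited log2 values are RMA values, and the submitters' processing notes name Affymetrix Expression Console (version 1.3.0.187); its other settings were not given in the sources used. RMA as commonly run includes quantile normalization of probes, which can hide shifts shared by most genes.

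Of 35556 probe sets, 21789 had 1 gene symbol, 1621 several and 12146 were unlisted. The probe set with the highest mean stood for each of 19938 genes, 999 of which had several. limma 3.58.1 (R 4.3.3) fitted the 3 gates together, 6 arrays and no covariate, with 3 residual and 3.83 prior degrees of freedom; the fit was tested on simulated data. Python 3.11.15 with pandas 2.3.3 made the lists and matplotlib 3.10.9 the plots. For a gene below background on both arrays of 1 gate, the background level replaced that gate's mean in an "at least" value. The labels do not say whether pools shared animals, so p values measure only the spread between these arrays.

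The genes named were the 10 members; up to 6 called genes per list and comparison; the genes most like Peg3 (6) and Meg3 (3), without predicted-gene symbols; and leading or defining markers. Rtl1, Blcap, Cobl, Igf1r, Igf2r, Igfbp4, Pecam1, Lyve1 and Tie1 were named after their values were seen. The members and lists were chosen with earlier results of these data known. The alternatives were other normalizations, probe set summaries, a background filter, other priors, array weights, 2-gate fits, a replicate block, left-out arrays and a threshold of 0.1.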

Additional observations from a re-analysis of the deposited data

How the results depend on the processing

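Having 2 arrays a gate limits every comparison, and the counts of calls over all genes moved with the setting. High against negative had 939 calls, and 621 with quantile normalization, 620 with array weights, 561 with only the arrays of both gates, 1817 at a threshold of 0.1 and 13 (negative replicate 2) to 1919 (high replicate 1) with 1 array left out. High against low had 978, and 607, 499 and 1771 with array weights, both gates' arrays and the threshold of 0.1, and 381 (low replicate 2) to 1739 (high replicate 1) with 1 array left out. Low against negative had 1188, and 2150 with array weights, 1914 at 0.1 and 187 (negative replicate 1) to 1761 (either high array) with 1 array left out. Quantile normalization moved the split of higher calls from 29% to 52.2% in high against negative and from 20.7% to 34.6% in high against low. The fit with the replicate number as a block gave 1065, 965 and 1298 calls. Deviations of same-numbered arrays correlated at 0.103, 0.102 and 0.079. These did not pass 0.1 for every pair of gates, and the labels name no pairing, so the numbers were not taken as pairs. With 2 arrays a gate, such correlations cannot show whether the gates shared animals.

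Other imprinted genes called in high against negative went from 0 to 1 with arrays centred, with quantile normalization, with the mean of probe sets, with the background filter and with the replicate block, to 3 at 0.1, and to 0 to 4 with 1 array left out. In high against low they went from 5 to 3 with the trend and robust prior and with array weights, to 1 with both gates' arrays, and to 1 to 5 with 1 array left out; in low against negative from 6 to 1 to 9. Members called in high against negative went from 0 to 1, Peg3, with the mean of probe sets and at 0.1, and stayed at 0 with 1 array left out; in high against low they were 0 to 1 (Meg3, without low replicate 1). With 0 tested members called in the main fit of either comparison, there was no called direction to reverse. Signs did change in high against negative for Ndn (4 of 13 settings), Nnat (2 of 14) and Magel2 (1 of 13). In high against low they changed for Dlk1 (3 of 14), Igf2 (2 of 14), Ndn (2 of 13), Magel2 and Mest (1 of 13 each). With arrays centred, low minus negative was -0.18 for Plagl1 and -0.02 for Grb10, both near background.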
